A study of Rattus norvegicus with 241 samples.

Results

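Mature luminal cells are the hormone-sensing cells of the mammary duct, and 4126 of the 103524 cells of the whole SD mammary gland (3.99%) were counted as such. A cell was taken when it held at least 3 unique molecular identifiers (UMIs, each counting 1 captured RNA molecule) summed over KRT8 and KRT18, at least 2 summed over CITED1, PRLR, FCGBP and NPTX2, and at most 1 summed over PTPRC, KIT and ELF5. The values of these 9 genes chose the cells, so none of them is tested, and those of CITED1, PRLR, FCGBP and NPTX2 are given below as a description. The cells came from unsorted glands of 9 outbred Hsd:Sprague Dawley (SD) virgin female rats, with 1 droplet single-cell library per rat. Of these rats, 3 received vehicle (rats 1, 2 and 4) and 6 received TGFBRi (rats 1, 2, 4, 6, 11 and 14). TGFBRi was LY2157299 (spelled LY22157299 in the labels), which blocks the kinase of the type I TGFβ receptor, given by gavage at 75 mg/kg in 2 doses per day for 10 days from about 24 days of age. Glands were taken on day 0, when dosing stopped. The inhibitor reached the whole animal, so an effect on the luminal cells themselves and an effect by way of other cells cannot be told apart.

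Mature luminal cells carry the estrogen receptor (ESR1) and the progesterone receptor (PGR). They pass the hormone signal on to neighboring cells through secreted ligands such as amphiregulin (AREG) and WNT4. FOXA1 and GATA3 are transcription factors on which this lineage depends. CITED1 is a transcriptional co-regulator of estrogen signaling and PRLR is the prolactin receptor. Luminal progenitors, the other luminal population, carry KIT and ELF5 and give rise to the milk-producing alveolar cells. TGFβ ligands signal through type II and type I receptors to SMAD2 and SMAD3, and in the mammary gland they are known for restraining the growth of the epithelium.

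The whole gland libraries held 7900 to 16424 cells and 43110875 to 92699378 UMIs per rat. Vehicle rats gave 838, 396 and 512 mature luminal cells, and TGFBRi rats gave 237 to 608. Their median depth was 8925 to 12058 UMIs per cell in vehicle and 8771 to 12228 in TGFBRi rats, and mitochondrial genes took 4.48 to 5.78% of their UMIs. Cell barcodes occurring in 2 or more libraries made up 6.31% of all distinct barcodes, and 6 of 4120 among the mature luminal cells. Vehicle rat 4 stood apart from the other 8 rats. It gave 181 B cells against 1466 to 2273, 135 luminal progenitors against 439 to 982 and 1619 keratin-positive cells against 1945 to 5406. Keratin-positive cells held at least 3 UMIs of KRT8 and KRT18 and at most 1 of PTPRC. At least 2 UMIs of genes of other cell types were held by 17.7, 29.5 and 48.05% of the mature luminal cells of vehicle rats 1, 2 and 4 and by 10.7 to 25.6% of those of TGFBRi rats, so that 2 of the 3 vehicle rats exceeded every TGFBRi rat. Vehicle rat 2 contributed the fewest mature luminal cells of the vehicle group. B cells (13611 cells of the same libraries), which do not make epithelial RNA, served as the background of free RNA. For genes that B cells express themselves, their level also holds their own RNA and does not measure free RNA.

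The label was checked on genes outside the gate. The check took keratin-positive cells with at most 1 UMI summed over PTPRC, KIT and ELF5. Cells with more KIT or ELF5 UMIs were thus not among those compared. The group medians of ESR1, PGR, FOXA1 and AREG were higher in the cells that held 4 or more gate UMIs (1140 in vehicle and 1956 in TGFBRi rats) than in those that held none of CITED1, PRLR, FCGBP and NPTX2 (5588 and 5532). Levels are in CPM (UMIs of a gene scaled to a common total, here the UMI sum of the cells of 1 rat). In vehicle rats the median ESR1 level was 1.04 CPM in cells with 0 gate UMIs, 6.63 with 1, 8.39 with 2, 12.4 with 3 and 14.5 with 4 or more. In TGFBRi rats it was 1.21, 4.58, 9.55, 11.3 and 28.6. The cells just inside the gate (2 UMIs; 367 vehicle and 255 TGFBRi cells) thus lay above the cells just outside it (1 UMI; 741 and 651 cells) in median ESR1. For PGR the vehicle median was 36.9 just outside and 67.3 just inside, and the TGFBRi median 8.99 and 11.6. Vehicle rat 2 went against this, with PGR at 4.36 just outside, 4.42 just inside and 36.6 in cells with 4 or more. AREG was level inside the gate in vehicle rats (medians of 791, 786 and 782 with 2, 3 and 4 or more UMIs), and in vehicle rat 2 it was lower with 2 and 3 UMIs (523 and 394) than with none (566). Per rat, 68.7 to 87.6% of the mature luminal cells held at least 2 UMIs of ESR1, PGR, FOXA1 and AREG together. Of the 10 markers outside the gate, TNFSF11, the RANK ligand, was not analysed here.

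**Figure D1:**
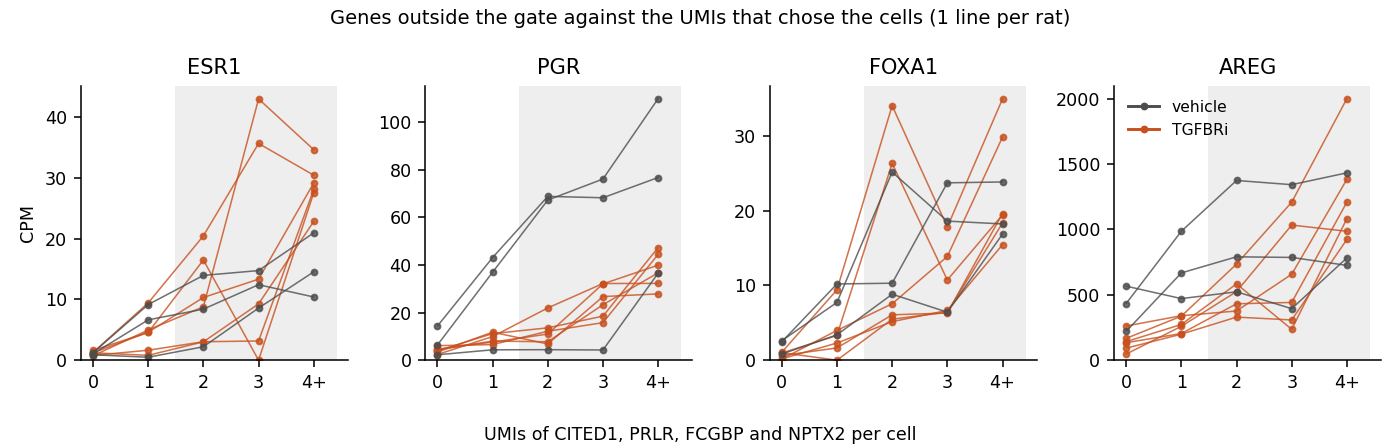
Level of 4 genes outside the gate in CPM (vertical axes, 1 panel per gene) against the summed UMIs of CITED1, PRLR, FCGBP and NPTX2 per keratin-positive cell (horizontal axes), with 1 line per rat, black for the 3 vehicle and orange for the 6 TGFBRi rats, and the strata inside the gate shaded. Only cells with at most 1 UMI summed over PTPRC, KIT and ELF5 are shown. Levels in the last stratum lie above those in the first in all 9 rats, while PGR of 1 vehicle rat stays near 4 until the last stratum and AREG of the same rat dips from 566 to 394 before it.

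Compared with the 5387 luminal progenitors of the same glands, the mature luminal cells were the hormone receptor-positive population. The comparison is a description, because both sets were chosen on their counts. Of 15110 genes tested, 6945 (46%) differed between the classes at an adjusted p of 0.05 or less (edgeR, with the rat as a block), 3665 (24.3%) higher and 3280 (21.7%) lower in mature luminal cells. ESR1 lay between 9.03 and 29.3 CPM in the mature luminal cells of the 9 rats and between 0.87 and 3.95 in the progenitors. PGR lay between 22.8 and 91.8 against 0.46 and 4.67, FOXA1 between 12.6 and 29.1 against 0.90 and 5.001, and AREG between 617 and 1651 against 6.69 and 141. GATA3 lay between 106.5 and 392 against 50.1 and 94.5. In each of these 5 genes every rat was higher in its mature luminal cells. Markers of basal and myoepithelial cells were higher there too on average. KRT5 and KRT14 were higher in 6 rats and lower in 3, and TP63 was higher in 8 and lower in 1. ACTA2, smooth muscle actin, lay between 212 and 1193 against 33.8 and 304 and was higher in 9 of 9 rats (1.91 on the log2 scale), KRT5 between 4.25 and 97.6 against 4.54 and 26.8 (1.31), KRT14 between 38.4 and 358 against 46.3 and 120 (0.88) and TP63 between 0 and 7.97 against 0 and 1.85 (1.63). The genes furthest above the progenitors were UPK3A, a uroplakin, LOC102552398, SMIM31, MSLN (mesothelin), CLCA1, a secreted protein of mucous epithelia at 352 to 9029 against 5.61 to 160, BCHE (butyrylcholinesterase), SHISA8, RMT1, SPEF2 and ADRA1A, an adrenergic receptor. Furthest below were milk genes of the alveolar lineage, among them the caseins CSN2, CSN3 and CSN1S1, WAP, PRR27, BTN1A1 and THRSP. CSN1S1 still reached 293 to 4199 CPM in mature luminal cells, beside 11198 to 77001 in progenitors and 103.6 to 134 in B cells on average, and the part of free RNA in the milk gene values of mature luminal cells was not tested.

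The genes of the gate are given without a test. CITED1 was at 409 to 797 CPM in vehicle and 988 to 1566 in TGFBRi rats. PRLR was at 68.8 to 161 and 146 to 288, FCGBP at 41.8 to 86.9 and 20.6 to 134, and NPTX2 at 15.7 to 17.9 and 10.6 to 28.6. A CITED1 UMI was found in 79.95 to 90.4% of the cells in vehicle and 89.4 to 93.9% in TGFBRi rats. CITED1 was higher in every TGFBRi rat than in any vehicle rat, while the ranges of PRLR, FCGBP and NPTX2 overlapped. A cell with more UMIs of these genes passes the gate more easily, so that the gate is not independent of their level.

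Mature luminal cells made up 4.19 ± 0.99% of all cells in vehicle rats (SD, n = 3) and 3.83 ± 1.13% in TGFBRi rats (SD, n = 6). The difference of -0.37 percentage points was smaller than the spread between rats (two-sided exact permutation test over rats, p = 0.631, where the smallest possible p is 0.0119). Among keratin-positive cells the shares were 19.9 ± 10.3% and 17.7 ± 5.10% (exact permutation p = 0.690), and vehicle rat 4 was the highest at 31.6%. When each cell was thinned to 2000 UMIs, the gate was applied again. It passed 179 to 351 cells per vehicle rat and 195 to 505 per TGFBRi rat. In the thinned values below both depth and membership therefore differ. The exception is the share of cells holding a UMI of CXCL3, GATA3 or ALDH1A3. There the members at full depth were kept, without those under 2000 UMIs. After thinning, the difference in the share of all cells turned, with 2.84 ± 0.58% in vehicle and 3.95 ± 1.25% in TGFBRi rats (exact permutation p = 0.167). Thinned to the same depth, 13.4 ± 8.42% and 19.9 ± 5.69% of keratin-positive cells passed the gate (exact permutation p = 0.25). A difference in share was thus not resolved between 3 and 6 rats.

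**Figure D2:**
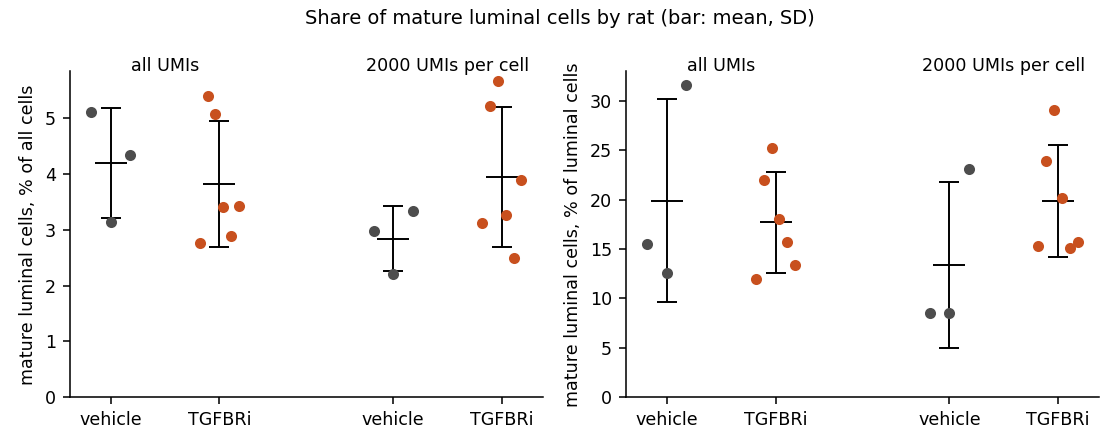
Mature luminal cells as a percent of all cells (left) and of keratin-positive cells (right), with 1 point per rat, the mean as a bar and the SD as whiskers, for all UMIs and for cells thinned to 2000 UMIs. The 3 vehicle and 6 TGFBRi rats overlap in each panel, and the TGFBRi mean moves from below to above the vehicle mean after thinning.

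In a test across all genes on UMI sums per rat, many genes differed between the mature luminal cells of TGFBRi and vehicle rats. The cells differed in gate UMIs too. Those with 4 or more numbered 1140 in vehicle and 1956 in TGFBRi rats. Those with 2 numbered 367 and 255, and those with 3 numbered 239 and 169. The part of a shift in which cells passed the gate was not tested. Of 14089 genes tested, 3779 (26.8%) had an adjusted p of 0.1 or less (edgeR quasi-likelihood test, Benjamini-Hochberg). Of these, 1761 rose (12.5% of those tested) and 2018 fell (14.3%), and the median change of all genes was 0.02 on the log2 scale. TGFBRi rats were all above the vehicle rats in 10.3% of the genes and all below them in 11.2%, 21.5% together. Leaving out 1 rat at a time gave 2680 to 3864 genes, and 1879 genes were called in all 9 of those fits. With all cells thinned to 2000 UMIs, 984 of 10714 genes tested were called, 359 of them higher, and 868 of them were among the 3779 in the same direction. The counts of lists at 2000 UMIs per cell below stand beside this lower share, and not beside 26.8%.

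The largest falls included chemokines that draw neutrophils. CXCL3 stood at 5951, 7686 and 11605 CPM in vehicle rats 1, 2 and 4, and at 487 to 1171 in TGFBRi rats with a median of 904. Every TGFBRi rat lay below every vehicle rat, and the change was -3.30 on the log2 scale (SE 0.29, edgeR adjusted p = 7.7e-05). A CXCL3 UMI was seen in 73.7 to 89.6% of the mature luminal cells of vehicle rats and in 19.4 to 37.2% of those of TGFBRi rats, beside 4.93 to 14.8% and 0.51 to 1.07% of B cells. At 2000 UMIs per cell the shares were 64.8 to 87.6% and 14.0 to 28.5%. CXCL6, of the same family, stood at 150, 318 and 549 in vehicle and 8.26 to 61.4 in TGFBRi rats (-3.74, SE 0.68, edgeR adjusted p = 0.0012). CXCL1 and CXCL2, which were chosen after their values were seen, also fell. CXCL1 was at 5512, 5202 and 3784 against 696 to 2555 (-1.83, SE 0.32, edgeR adjusted p = 0.0029), and CXCL2 at 3054, 2080 and 1360 against 251.4 to 870 (-2.27, SE 0.48, edgeR adjusted p = 0.0017). The falls of CXCL1 and CXCL2 were smaller at 2000 UMIs per cell, -1.12 and -1.38, and were still called. The 4 genes are similar in sequence, and how reads were divided among them was not tested. CSF3, the granulocyte growth factor, fell from 161, 148 and 159 to 5.69 to 61.4 (-2.33, SE 0.56), and its level in B cells of vehicle rats was 59.3.

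Promoters of CXCL1 and CXCL6 from RefSeq (rat build GRCr8, 250 bases before to 50 after the start of the gene, both on the minus strand and written 5′ to 3′) are shown because these genes of one cluster both fell. Capitals mark CCGGGAATTTCCC, the longest run of letters that both windows share, which was found by comparing them and contains a form of the NF-κB recognition sequence. It was the only motif searched, on both strands, and occurred in 2 of 33469 such promoters (0.00598%), these 2. Since the letters were chosen for being in both windows, their presence in these 2 was fixed by that choice. The share says only that no other promoter searched held them. The same window of CXCL2 does not hold these letters, and CXCL3 had no promoter entry. A match in letters is a description and not a site in use.
CXCL1, chr14:17479272-17479571: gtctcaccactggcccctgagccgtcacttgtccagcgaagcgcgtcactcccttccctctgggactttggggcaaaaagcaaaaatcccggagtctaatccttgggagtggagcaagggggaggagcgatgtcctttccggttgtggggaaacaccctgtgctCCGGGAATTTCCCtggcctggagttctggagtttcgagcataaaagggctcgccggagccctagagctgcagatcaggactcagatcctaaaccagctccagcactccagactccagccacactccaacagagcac
CXCL6, chr14:17596368-17596667: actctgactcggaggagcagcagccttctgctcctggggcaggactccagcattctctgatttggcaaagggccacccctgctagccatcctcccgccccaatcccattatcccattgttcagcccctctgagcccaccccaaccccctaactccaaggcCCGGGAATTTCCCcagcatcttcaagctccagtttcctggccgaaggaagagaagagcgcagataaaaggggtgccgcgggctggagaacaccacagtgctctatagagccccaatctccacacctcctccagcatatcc

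The rest of the 12 largest falls included enzymes and receptors. AKR1B8, an aldo-keto reductase, fell from 239, 548 and 440 to 20.0 to 41.8 CPM (-3.74, SE 0.28, edgeR adjusted p = 6.2e-05). ASS1, argininosuccinate synthase of the arginine pathway, fell from 65.02, 87.6 and 98.3 to 6.18 to 14.5 (-3.07, SE 0.26, edgeR adjusted p = 6.2e-05). RSAD2, an interferon-induced antiviral enzyme, fell from 28.7, 33.4 and 43.3 to 0.87 to 5.79 (-3.69, SE 0.36). In these 3 genes the lowest vehicle rat was well above the highest TGFBRi rat. IL1RL1, the receptor of interleukin-33, was at 53.6, 89.9 and 19.1 against 0.52 to 11.4, and CNTFR, the receptor of ciliary neurotrophic factor, at 37.9, 16.5 and 8.00 against 0 to 4.14. TNFSF18, the ligand of GITR, was at 11.9, 12.3 and 8.52 against 0.18 to 2.61, and MAL, a membrane raft protein, at 21.9, 11.9 and 3.13 against 0.26 to 1.96. DDIT4L, an inhibitor of mTOR signaling, had the largest fitted fall (-4.67, SE 0.93), from 3.65 to 22.8 down to 0 to 1.17, so that its size rests on few UMIs. Without the cells that held UMIs of other types it was -2.48 and not called (edgeR adjusted p = 0.11), while IL1RL1 became larger (-5.13). TNFSF18 at 2000 UMIs per cell was -1.52 (edgeR adjusted p = 0.32) and MAL -1.84 (edgeR adjusted p = 0.12), and both calls were lost. LOC497963 and MGC105649 complete the 12. For 7 of the 12 genes the level in B cells was at least 0.2 of that in mature luminal cells, and among them IL1RL1 had a ratio of 0.81, RSAD2 0.64 and MGC105649 8.64. The part of free RNA in these falls was not tested.

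The largest rises were in genes of low level, without one shared role. HEPACAM2, an adhesion protein of the immunoglobulin family, rose from 13.3, 16.7 and 4.70 CPM to 42.1 to 81.6 (2.19, SE 0.34, edgeR adjusted p = 0.0024). STXBP6, a regulator of vesicle fusion, rose from 14.1, 4.92 and 9.04 to 22.1 to 66.3 (2.35, SE 0.36), and ATP7B, a copper-transporting ATPase, from 3.84, 0.70 and 2.61 to 12.3 to 20.6 (2.86, SE 0.35). Free RNA of the last 2 was low, with group means in B cells of 0 and 0.13 for ATP7B and of 0.31 and 0.44 for STXBP6. LOC102552398, which also set mature luminal cells apart from progenitors, had the largest fitted rise (4.07, SE 0.86), from 4.77, 1.23 and 8.17 to 12.6 to 168. RPRM, a cell cycle inhibitor downstream of p53, rose from 0.88 to 1.39 up to 4.25 to 31.4, and KCNAB1, a subunit of potassium channels, from 0.17 to 1.05 up to 1.52 to 25.9. ROR1, a receptor of WNT5A, rose by 2.12, SCUBE2, a secreted protein that helps release Hedgehog ligands, by 2.59, SLC7A4, of the amino acid transporter family, by 2.06, and COQ8A, which serves coenzyme Q synthesis, by 2.10, beside AABR07001634.1 (2.12). Thinning to 2000 UMIs per cell removed the calls of COQ8A (1.21, edgeR adjusted p = 0.34), KCNAB1 (2.38, edgeR adjusted p = 0.23) and SCUBE2 (2.59, where the adjusted p was just past the threshold), and ROR1 was larger (3.47). GNAS, the stimulatory G protein subunit that couples hormone receptors to cAMP, was higher in every TGFBRi rat (1.51 to 2.26 against 2.53 to 17.4), but the call was lost without vehicle rat 1 (1.83, edgeR adjusted p = 0.13) and without vehicle rat 2 (2.01, 0.11). Transcripts overlap at the GNAS locus, so its count is uncertain. Among the 12 rises, only COQ8A had a B cell level of at least 0.2 of its level in mature luminal cells.

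**Figure D3:**
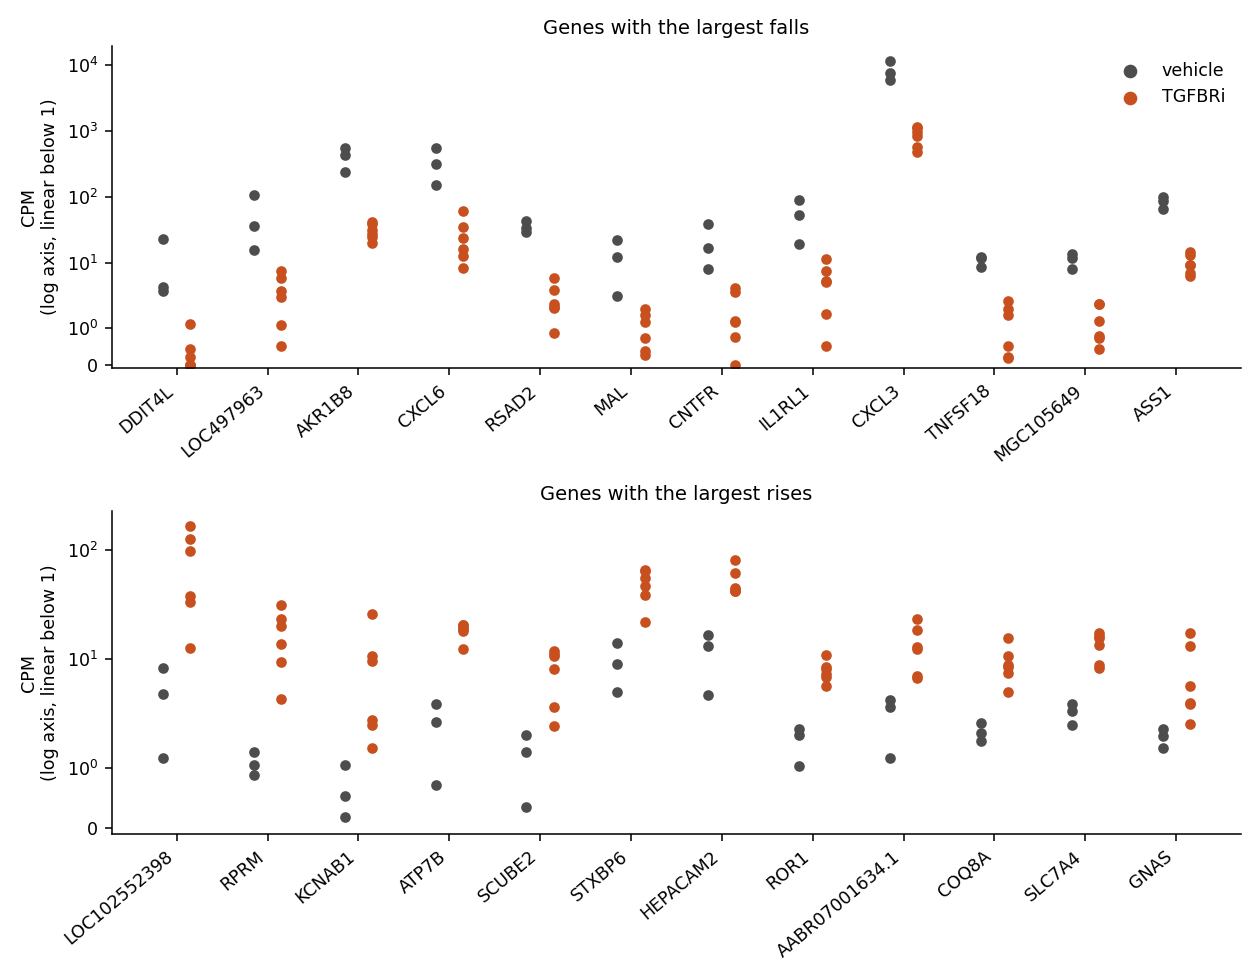
CPM (vertical axes, log scale above 1 and linear below) of the 12 genes with the largest falls (top) and the 12 with the largest rises (bottom), with 1 point per rat, black for the 3 vehicle and orange for the 6 TGFBRi rats. Values of the groups do not overlap for any gene shown, which was one condition for choosing them, and CXCL3 spans 487 to 11605.

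The regulators of the hormone-sensing lineage did not move as one. Of 13 listed genes tested, 4 rose, 3 fell and 6 did not pass (53.8% called, beside 26.8% of all genes; 1 rose and 3 fell without vehicle rat 2, and 2 rose and 1 fell without vehicle rat 4), with a median change of 0.36 beside 0.02 over all genes. GATA3 fell the most clearly, from 389, 241 and 453 CPM to 123 to 177 with a median of 160 in TGFBRi rats. No TGFBRi rat reached the lowest vehicle rat, and the change of -1.21 (SE 0.20, edgeR adjusted p = 0.0013) was called in all 9 fits that left out a rat. A GATA3 UMI was seen in 75 to 83.98% of the cells of vehicle and 54.7 to 69.3% of those of TGFBRi rats, and in 36.01 to 53.3% and 20.3 to 26.9% at 2000 UMIs per cell. B cells held one in at most 1.10%. TBX3, a transcription factor of the same lineage, was at 37.6, 30.6 and 44.2 against 21.6 to 29.2 (-0.49, SE 0.17, edgeR adjusted p = 0.031), a call lost without vehicle rat 4 (-0.36, edgeR adjusted p = 0.14) and at 2000 UMIs per cell (-0.35, edgeR adjusted p = 0.51).

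The hormone receptors themselves moved in opposite directions, each on fewer UMIs. ESR1 was at 20.6, 11.9 and 10.4 CPM in vehicle and at 18.5 to 33.8 in TGFBRi rats, with a median of 26.01. Vehicle rat 1 lay inside the TGFBRi range, and the rise of 0.87 (SE 0.26, edgeR adjusted p = 0.027) was lost without vehicle rat 4 (0.69, edgeR adjusted p = 0.11) and without vehicle rat 2 (0.75, where the adjusted p was just past the threshold). PGR was at 106.8, 28.5 and 75.8 in vehicle and 26.6 to 39.6 in TGFBRi rats. Vehicle rat 2 lay among the TGFBRi rats, and the fall of 1.02 on the log2 scale (SE 0.32, edgeR adjusted p = 0.033) was lost without vehicle rat 1 (-0.58, edgeR adjusted p = 0.19) and passed no longer without vehicle rat 4 (-0.97). FOXA1, at 14.6 to 23.4 and 14.6 to 33.9, gave 0.14 (SE 0.28, edgeR adjusted p = 0.75). SPDEF, an epithelial ETS factor, rose from 14.1, 12.1 and 17.4 to 20.2 to 40.6 (1.09, SE 0.26, edgeR adjusted p = 0.012), and XBP1, a factor of the secretory pathway, rose by 0.55 but was called in 3 of the 9 fits that left out a rat. The fourth rise, ESRRB, rested on a mean of 1.33 UMIs per rat, with all vehicle rats at 0. At 2000 UMIs per cell, no regulator of 12 tested rose and 2 fell. ESR1 was then at 1.05, with an adjusted p just past the threshold, and SPDEF at 0.71 (edgeR adjusted p = 0.19).

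Among the ligands that mature luminal cells send to their neighbors, 2 of 8 tested rose and 1 fell (37.5% called, beside 26.8% of all genes), and at 2000 UMIs per cell none of 7 was called. WNT4, the ligand downstream of progesterone, rose from 57.8, 24.1 and 33.4 CPM to 63.4 to 137 (1.17, SE 0.29, edgeR adjusted p = 0.019), and all TGFBRi rats were above all vehicle rats. FGF1 rose from 6.86, 2.81 and 6.09 to 10.7 to 16.2 (1.34, SE 0.29, edgeR adjusted p = 0.0068). Both calls were lost at 2000 UMIs per cell, where WNT4 was at 0.72 (edgeR adjusted p = 0.14) and FGF1 at 1.36 (edgeR adjusted p = 0.30). CALCA, the gene of calcitonin and its related peptide, was the fall, at 1.22 to 1.93 in vehicle and 0 to 0.22 in TGFBRi rats, but its B cell level of 9.31 in vehicle rats was above that of the mature luminal cells. AREG, the ligand of the EGF receptor through which estrogen drives duct growth, was at 1538, 702 and 743 in vehicle and 819 to 1915 in TGFBRi rats (0.23, SE 0.29, edgeR adjusted p = 0.64). An AREG UMI was seen in 79.04 to 90.1% and 78.5 to 88.8% of the cells. In B cells that share was at most 1.90%, so the AREG signal was far above free RNA. Of 8 tested target genes of estrogen and progesterone, 0 were called by edgeR or by DESeq2 at an adjusted p of 0.1 and 0 had an unadjusted p under 0.05, while 1 rose without vehicle rat 1 and 1 fell without vehicle rat 4, and RASD1 stood at 8.96 to 23.4 and 16.8 to 24.3.

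Genes of epithelial structure fell together in the whole gland, and fewer of them were called in the sorted cells given below. Of 17 junction genes tested, 13 fell and 1 rose (82.4% called, beside 26.8% of all genes), with a median change of -0.72 beside 0.02. CDH1 (E-cadherin) was at 465, 459 and 523 CPM in vehicle and 209 to 282 in TGFBRi rats (-1.002, SE 0.12, edgeR adjusted p = 0.0003). OCLN (occludin) was at 142, 117 and 144 against 53.8 to 69.4 (-1.12, SE 0.13, edgeR adjusted p = 0.00022). For both genes the vehicle rats lay close together and apart from all TGFBRi rats. CLDN8, a claudin of tight junctions, was the exception and rose from 5.58, 5.27 and 5.91 to 12.4 to 27.2 (1.89, SE 0.29, edgeR adjusted p = 0.0012). With cells thinned to 2000 UMIs 11 of the 17 fell and 1 rose, and without the cells that held UMIs of other cell types 14 fell and 1 rose. The sum of the list was 11080 to 12805 in vehicle, 6073 to 9053 in TGFBRi rats and 218 to 302 in B cells.

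The 4 luminal keratins tested outside the gate all fell, beside 14.3% of all genes, with a median of -1.72. KRT20, also listed, was not tested. KRT23 was at 139, 177 and 166 CPM against 12.8 to 31.8 (-2.92, SE 0.27, edgeR adjusted p = 7.2e-05). KRT7 was at 659, 732 and 1025 against 165 to 497 (-1.58, SE 0.30, edgeR adjusted p = 0.0038), and KRT19 at 1759, 1944 and 2051 against 790 to 1470 (-0.92, SE 0.20). KRT80 fell by 1.85 on the log2 scale on fewer UMIs, and TGFBRi rat 4 at 10.4 reached the lowest vehicle value of 9.77. The 4 falls remained called at 2000 UMIs per cell and without cells holding UMIs of other types.

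Of 11 progenitor and alveolar genes tested, 5 fell and 1 rose (54.5% called, beside 26.8% of all genes; median -0.47). Without vehicle rat 1, 2 fell and none rose, and at 2000 UMIs per cell 2 fell and 2 rose. ALDH1A3, a retinaldehyde dehydrogenase known as a progenitor marker, was in these glands higher in mature luminal cells than in progenitors (1.08 on the log2 scale). It stood at 469, 1016 and 1177 CPM in the mature luminal cells of vehicle rats and at 91.7 to 196 in TGFBRi rats (-2.78, SE 0.29, edgeR adjusted p = 0.00018). The lowest vehicle rat was above the highest TGFBRi rat by more than the range of the TGFBRi group. An ALDH1A3 UMI was seen in 59.4 to 76.8% of the mature luminal cells of vehicle rats and 22.9 to 31.3% of those of TGFBRi rats (39.4 to 53.99% and 12.6 to 22.5% of progenitors), in 36.8 to 64.8% and 10.9 to 17.1% at 2000 UMIs per cell, and in at most 1.69% of B cells. The other falls were CSF3 (above), SOX10 and CD14, which were called in 3 and 2 of the 9 fits that left out a rat, and RUNX1, a transcription factor at 112 to 179 against 72.9 to 111 (-0.55, edgeR adjusted p = 0.034), which was lost without vehicle rat 1 (-0.34, edgeR adjusted p = 0.16) and at 2000 UMIs per cell (-0.31, edgeR adjusted p = 0.44). NFIB rose by 0.84, a call lost without vehicle rat 4 (0.75, edgeR adjusted p = 0.14) and weakened past the threshold without vehicle rat 1 (0.83). The defining progenitor genes KIT and ELF5 belonged to the gate and cannot be read here.

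**Figure D4:**
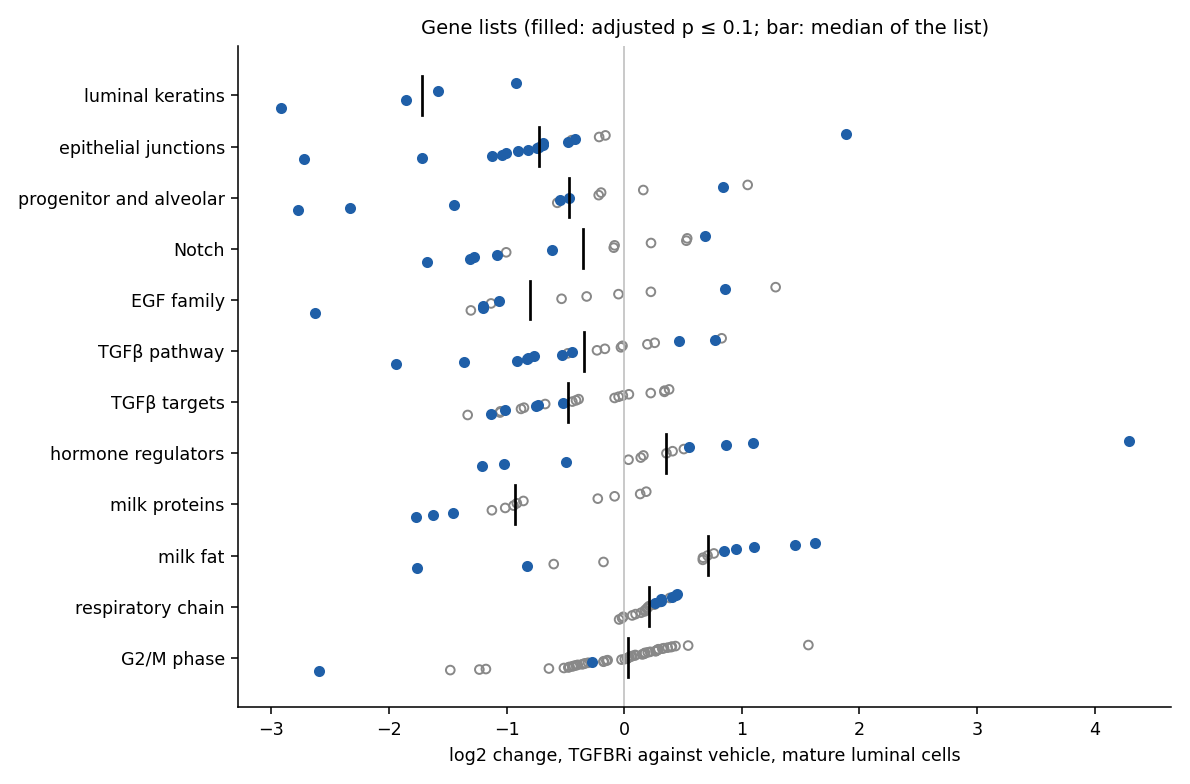
Log2 change of the members of 12 gene lists in mature luminal cells, TGFBRi against vehicle (horizontal axis), with 1 point per gene, filled where the edgeR adjusted p was 0.1 or less, and a bar at the median of each list. Luminal keratins and junction genes lie mostly left of 0 (medians -1.72 and -0.72), while the 20 respiratory chain genes lie near or right of it (median 0.21).

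In the Notch pathway, which directs luminal cell fate, 5 of 12 genes tested fell and 1 rose (50% called, beside 26.8% of all genes; median -0.35). Thinned to 2000 UMIs per cell, 2 of 8 fell and none rose. The receptor NOTCH1 was at 135, 138 and 185 CPM against 58.9 to 83.04 (-1.08, SE 0.17, edgeR adjusted p = 0.00092), and its ligand JAG1 at 86.2, 70.3 and 109 against 27.8 to 48.7 (-1.28, SE 0.21, edgeR adjusted p = 0.0013). NOTCH2 fell by 1.31 on the log2 scale, and its level in B cells was above that in mature luminal cells. NOTCH3 rose from 18.8 to 24.1 up to 28.1 to 44.04 (0.68, SE 0.19). The calls of NOTCH2 (-1.06, edgeR adjusted p = 0.26) and NOTCH3 (0.99, edgeR adjusted p = 0.11) were lost at 2000 UMIs per cell. HEYL and NRARP, targets of the pathway, were the other falls, both with B cell levels above their own (ratios 2.38 and 5.09), while HES1 (0.53) and HEY1 (0.23) did not pass.

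Of 12 EGF family genes tested, 4 fell, 3 of them ligands of the EGF receptor, and 1 rose (41.7% called, beside 26.8% of all genes; median -0.80). Without vehicle rat 2 or 4, 3 fell and none rose. HBEGF was at 402, 431 and 245 CPM against 114 to 200 (-1.20, SE 0.24, edgeR adjusted p = 0.0036). BTC (betacellulin) was at 81.9, 17.7 and 35.7 against 2.75 to 12.9 (-2.63, SE 0.53), and TGFA at 60.3, 33.2 and 38.8 against 17.2 to 28.6 (-1.06, SE 0.24). For each of these ligands the groups did not overlap. The receptor EGFR was at 16.9, 24.8 and 23.7 against 3.13 to 14.7 (-1.20, SE 0.39, edgeR adjusted p = 0.036), and the call was lost without vehicle rat 2 (-1.09, edgeR adjusted p = 0.11) and without vehicle rat 4 (-1.13, 0.11). ERBB4, a neuregulin receptor, rose by 0.85 but was called in 6 of the 9 fits that left out a rat, and ERBB2 (-0.32) and ERBB3 (-0.05) did not pass.

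In the pathway that the inhibitor targets, 8 of 18 genes for ligands, receptors, SMADs and activators fell and 2 rose (55.6% called, beside 26.8% of all genes; median -0.34). The falls numbered 5 without vehicle rat 1 or 2 and 4 without vehicle rat 4. ITGB6, the integrin subunit that pairs with ITGAV to activate latent TGFβ, was at 42.9, 53.04 and 91.5 CPM against 5.51 to 25.7 (-1.94, SE 0.44, edgeR adjusted p = 0.0086). ITGAV itself fell by 0.82 on the log2 scale, a call lost without vehicle rat 4 (-0.55, edgeR adjusted p = 0.11) and at 2000 UMIs per cell (-0.97, edgeR adjusted p = 0.12). The type II receptor TGFBR2 was at 40.5, 40.0 and 49.9 against 25.3 to 37.3 (-0.53, SE 0.17, edgeR adjusted p = 0.025), and was lost without vehicle rat 4 (-0.42, edgeR adjusted p = 0.11) and at 2000 UMIs per cell (-0.24, edgeR adjusted p = 0.73). It was higher in B cells than in mature luminal cells, by a ratio of 3.1. The ligand TGFB3 rose from 4.54 to 6.09 up to 7.40 to 10.7 (0.77, SE 0.26, edgeR adjusted p = 0.025), while TGFB1 (0.20), TGFB2 (-0.16) and the type I receptor TGFBR1 (0.26) did not pass. The transducer SMAD3 fell by 0.44 on the log2 scale and was called in 5 of the 9 fits that left out a rat, and SMAD2 (-0.23) and SMAD4 (-0.01) did not pass. At 2000 UMIs per cell 2 of 17 fell and 1 rose.

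Feedback and target genes of the pathway were listed apart. Of 12 feedback genes 1 fell (8.33% called, median 0.02, against 26.8% of all genes). It was TGIF1, a co-repressor of SMADs, at 218, 241 and 260 CPM against 124 to 161 (-0.69, SE 0.12, edgeR adjusted p = 0.0015). The inhibitory SMAD7 was at 19.1 to 29.6 and 28.4 to 42.1 (0.37, edgeR adjusted p = 0.17). Of 22 target genes 5 fell and none rose (22.7% called, median -0.48). In the cells with UMIs of ESR1, PGR, FOXA1 or AREG, an alternative added after the data were seen, 10 of the 22 fell. Over all genes 2006 of 13846 fell in that alternative. The 5 falls of the main test included TSC22D1 at 658 to 696 against 282 to 509 (-0.75, SE 0.18, edgeR adjusted p = 0.0092). The cell cycle inhibitor CDKN1A was another, at 548, 443 and 476 against 303 to 431 (-0.52, SE 0.14, edgeR adjusted p = 0.015). BHLHE40, LOXL2 and IGFBP7 were the others. IGFBP7 had more CPM in B cells than in mature luminal cells (ratio 2.24) and was lost without vehicle rat 4 (-0.81, edgeR adjusted p = 0.14). In the ID family, inhibitors of differentiation known as targets of BMP and TGFβ signals, 3 of 4 fell, beside 14.3% of all genes. ID2 was at 13.4, 10.2 and 18.8 against 3.12 to 7.19 (-1.50, SE 0.34, edgeR adjusted p = 0.0053). ID1 was at 8.72 to 22.3 against 4.64 to 7.91 (-1.23, SE 0.35). The change of ID1 was -0.69 without vehicle rat 4 (edgeR adjusted p = 0.094), and the call of ID2 was lost at 2000 UMIs per cell (-1.04, edgeR adjusted p = 0.28). ID2 was higher in B cells (ratio 1.70).

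Part of the milk fat genes rose, and milk protein genes turned in direction after thinning. Of 13 milk fat genes 5 rose, 2 fell and 6 did not pass (53.8% called, beside 26.8% of all genes; median 0.71). FASN (fatty acid synthase) was at 80.6, 78.3 and 74.8 CPM against 130 to 173 (0.95, SE 0.11, edgeR adjusted p = 0.00038), ACLY (ATP citrate lyase) at 72.004, 102.2 and 77.2 against 141 to 221 (1.10, SE 0.19), and ACACA (acetyl-CoA carboxylase) at 2.09 to 4.04 against 7.16 to 10.96 (1.45, SE 0.31). These enzymes carry successive steps of fatty acid synthesis, and no TGFBRi rat overlapped a vehicle rat in any of them. SREBF1, their transcription factor, and CIDEA, a lipid droplet protein, were the other rises. PLIN2, which coats lipid droplets, fell from 621, 779 and 179 to 129 to 171 (-1.76, SE 0.33, edgeR adjusted p = 0.0036). At 2000 UMIs per cell 4 of 13 rose and none fell, and the calls of PLIN2 (-0.53, edgeR adjusted p = 0.40) and ACACA (1.77, where the adjusted p was just past the threshold) were lost. Of 12 milk protein genes 3 fell and none rose (25% called; 1 of 11 fell without vehicle rat 2 and 5 of 12 without vehicle rat 4), yet at 2000 UMIs per cell 2 of 11 rose and none fell. CSN1S1 shows the range, at 2077, 4779 and 409 in vehicle and 344 to 1073 in TGFBRi rats (-1.63, SE 0.67, edgeR adjusted p = 0.053). Without vehicle rat 2 it was -0.67 (edgeR adjusted p = 0.43), and at 2000 UMIs per cell it was 0.17. PRR27 likewise went from -1.45 to -0.75 without vehicle rat 2 and to 0.38 at 2000 UMIs per cell.

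Of 20 nuclear-encoded respiratory chain genes 6 rose and none fell (30% called, close to the 26.8% of all genes; median 0.21), and without vehicle rat 4 only 2 of the 20 rose. NDUFC2, a subunit of the first complex, was at 174, 217 and 189 CPM against 234 to 294 (0.44, SE 0.12, edgeR adjusted p = 0.020), and NDUFB3, of the same complex, at 75.3 to 96.7 against 111 to 141 (0.45, SE 0.13). The changes were small beside those above, though all TGFBRi rats were above all vehicle rats for 5 of the 20 (10.3% of all genes). At 2000 UMIs per cell 1 of the 20 rose, and NDUFB3 was not called (0.41, edgeR adjusted p = 0.16).

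Few genes of the cell cycle were called in the whole gland, while many rose in the sorted cells given below. Of 41 S phase genes 2 rose and 1 fell, and of 50 G2/M genes 2 fell and none rose, 7.32% and 4% against 26.8% of all genes. The S phase calls turned with single rats, with 2 falls and no rise without vehicle rat 1 and 3 rises and no fall without vehicle rat 2. The G2/M falls numbered 5 without vehicle rat 1 and 1 without vehicle rat 2. In the test on all rats the G2/M falls were GAS2L3, at 95.3, 15.8 and 22.96 CPM against 3.13 to 13.5 (-2.59, SE 0.70; -1.38 without vehicle rat 1), and CTCF, an architectural chromatin protein (-0.28), which was lost without vehicle rat 2 or 4 or TGFBRi rat 6 or 14 (-0.26 to -0.24) and at 2000 UMIs per cell. A MKI67 UMI was seen in 3.94 to 14.6% of the mature luminal cells of vehicle rats and in 2.93 to 18.4% of those of TGFBRi rats, beside 0.55 to 1.62% and 0.83 to 3.65% of B cells. Cells holding UMIs of at least 3 G2/M genes were 83.4 ± 3.04% and 82.4 ± 5.12% (exact permutation p = 0.774). At 2000 UMIs per cell they were 30.4 ± 4.65% and 26.4 ± 9.75% (exact permutation p = 0.560).

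Stress and interferon lists held calls in both directions. Of 12 genes of the integrated stress response 4 fell and 1 rose (41.7% called, beside 26.8% of all genes; 2 fell and none rose without vehicle rat 2), among them TRIB3 at 51.6, 70.3 and 56.005 CPM against 16.6 to 42.03 (-1.10, SE 0.28, edgeR adjusted p = 0.012) and SLC3A2, the heavy chain of amino acid exchangers, at 295 to 419 against 240 to 281 (-0.49, SE 0.12). SLC3A2 was at -0.14 at 2000 UMIs per cell and not called (edgeR adjusted p = 0.65). TRIB3 and SLC3A2 had B cell levels of about their own, with ratios of 0.91 and 0.88. Of 19 immediate early genes 3 rose and 3 fell (31.6% called, close to all genes), and 6 rose and 3 fell without vehicle rat 1. The falls were FOSL1, IER3, at 1818 to 2820 against 1085 to 1630 (-0.82, SE 0.17, edgeR adjusted p = 0.0042; -0.53 at 2000 UMIs per cell), and MYC, at 280 to 407 against 129 to 230 (-0.96, SE 0.21, edgeR adjusted p = 0.0057), and the rises FOSB, EGR2 and NR4A1. Of 12 heat shock genes (16.7% called, below all genes) HSPB1 fell (-1.77) and HSPA8 rose (0.64), a call lost without vehicle rat 2 or 4 or TGFBRi rat 1, 2, 4 or 6, with the lowest change without vehicle rat 2 (0.35, edgeR adjusted p = 0.17). Of 18 interferon-stimulated genes 4 fell and 1 rose (27.8% called, close to the 26.8% of all genes), and at 2000 UMIs per cell 1 of 15 fell. Without vehicle rat 4, 4 rose and 3 fell. ISG15 stood at 24.5, 38.3 and 48.7 against 14.1 to 22.7 (-0.91, SE 0.24, edgeR adjusted p = 0.011), and at 2000 UMIs per cell it was -0.032 and not called (edgeR adjusted p = 0.97). It was higher in B cells (ratio 2.00). In the IGF axis 1 of 13 rose, IGF2R, and 1 fell, IGFBP7 (15.4% called). Of 4 uroplakins 0 were called by edgeR or by DESeq2 and 1 had an unadjusted p under 0.05, and UPK3A, at 33.5 to 506 and 1.69 to 192, varied more between rats than between groups.

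Markers of other cell types were present, and their part in the results was not tested. Of the markers tested, 20% were called for fibroblasts, 11.1% for endothelium and 16.7% for leukocytes. The share was 7.69% for basal and myoepithelial cells, 25% for smooth muscle and 0% for red cells, beside 26.8% of all genes. The 10 fibroblast markers summed to 833 to 2197 CPM in vehicle and 315 to 1393 in TGFBRi rats, with 2 falls (DPP4 and MFAP5) that were called in at most 3 of the 9 fits that left out a rat. The 9 endothelial markers summed to 99.8 to 146 and 47.2 to 93.3, with 1 fall, FLT1 at 59.4 to 61.2 against 14.9 to 28.4 (-1.43, SE 0.21). The 13 leukocyte markers summed to 30.9 to 92.1 and 36.8 to 73.1, beside 5108 to 5885 in B cells. Of 12 tested, 1 rose (CD3E, lost without vehicle rat 2 or 4) and 1 fell (LYZ2, lost without vehicle rat 1 or 4 or TGFBRi rat 6). The 13 basal and myoepithelial markers summed to 2478 to 4654 and 901 to 5372, against 607 to 1027 and 627 to 870 for the hormone regulators, with 1 rise, OXTR at 0 to 0.52 against 0.55 to 10.4, which was lost without vehicle rat 2 (3.06, edgeR adjusted p = 0.11). KRT5 was at 17.7 to 56.2 and 4.96 to 115, and KRT14 at 121 to 304 and 44.9 to 421. Without the cells that held UMIs of other types, 4 of 11 basal and myoepithelial markers fell and 0 rose (median -1.11). KRT5 and KRT14 are among the genes by which those cells were left out. The 8 smooth muscle markers summed to 100.96 to 122 and 90.6 to 208, with RGS5 lower (lost without vehicle rat 4, -1.13) and NOTCH3 higher. The 6 red cell markers, of which 4 were tested, summed to 2.13 to 15.3 and 1.46 to 16.5. Of 6 MHC class II genes 2 fell (33.3% called, beside 26.8% of all genes). All 6 fell without vehicle rat 2, none without vehicle rat 1 or 4, and 5 of 5 without the cells that held UMIs of other types. The 2 were CIITA and CD74, both of them at far higher levels in B cells (CD74 ratio 121) and called in at most 3 of the 9 fits that left out a rat. Without the cells that held UMIs of other types 3354 genes were called, 2911 of them among the 3779 in the same direction.

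The luminal progenitors of the same rats gave a like count, 3579 of 13948 genes (25.7%; 14% rose and 11.7% fell), and the difference between the classes was tested directly. Of 15110 genes, 1216 (8.05%) had a TGFBRi effect that differed between the classes (edgeR interaction of class and treatment with the rat as a block, adjusted p of 0.1 or less), above the progenitor effect for 492 (3.26%) and below it for 724 (4.79%). Of the 3779 genes called in mature luminal cells, 1504 were also called in progenitors in the same direction and 454 had a called interaction. The interaction count rested on the vehicle rats: it was 372 without vehicle rat 1, 628 without vehicle rat 2 and 571 without vehicle rat 4, and 790 without TGFBRi rat 2. Both classes share their libraries, so their effects are set side by side.

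GATA3 was among the genes whose fall was larger in mature luminal cells, with -1.21 there, 0.09 in progenitors and a difference of -1.20 (edgeR adjusted p = 0.022). NOTCH1 fell by 1.08 on the log2 scale in mature luminal cells and gave -0.02 in progenitors (difference -1.01, edgeR adjusted p = 0.026), and ASS1 gave -3.07 and -0.35 (difference -2.77, edgeR adjusted p = 0.0059). ID2 gave -1.50 and 0.89 (difference -2.31, edgeR adjusted p = 0.0010). RSAD2 gave -3.69 and -0.57 (difference -2.90, edgeR adjusted p = 0.0034), and KRT19 -0.92 and -0.14 (difference -0.76, edgeR adjusted p = 0.028). The chemokines divided, as CXCL1 (-1.83 and -0.63) and CXCL2 (-2.27 and -0.66) differed between the classes while CXCL3 (-3.30 and -3.58) did not pass (edgeR adjusted p = 0.55). In the other direction, AREG gave 0.23 in mature luminal cells and -2.38 in progenitors (difference 2.64, edgeR adjusted p = 0.0011) and FOXA1 0.14 and -1.61 (difference 1.83, edgeR adjusted p = 0.0092), both at levels in progenitors far below those in mature luminal cells. KRT7 fell in both, and further in progenitors (-1.58 and -3.16, difference 1.56, edgeR adjusted p = 0.013). TGFB3 rose in both, and further in progenitors (0.77 and 2.26, difference -1.40, edgeR adjusted p = 0.0027). ALDH1A3 fell in both (-2.78 and -3.17), and its difference of 0.51 did not pass (edgeR adjusted p = 0.43).

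The same gate was applied to the sorted luminal cells of SD rats on the same day, in other libraries made with another chemistry from 3 vehicle and 6 TGFBRi rats, where 7081 of 23784 cells passed. There 4044 of 13321 genes (30.4%) were called, of which 2070 rose (15.5% of those tested) and 1974 fell (14.8%). That count fell to 1088 without vehicle rat 1, 2050 without vehicle rat 2 and 1893 without vehicle rat 3. Of the 3624 genes called in the whole gland and tested in both, 507 were called in the same direction in the sorted cells and 670 in the opposite one. A test of the difference, added after both comparisons had been seen, called 4395 of 14785 genes (29.7%), with the effect in the whole gland above that in sorted cells for 2105 (14.2%) and below it for 2290 (15.5%). Of the 12 largest falls, 11 were tested in the sorted cells, where 3 were called by edgeR, each as a rise. Of the 12 largest rises 1 (HEPACAM2) rose and 4 fell in the sorted cells.

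CXCL3 was at 206, 119 and 66.5 CPM in the mature luminal cells of sorted vehicle rats and at 166 to 2186 in those of TGFBRi rats (2.17, SE 0.91, edgeR adjusted p = 0.086), where the whole gland had 5951 to 11605 and 487 to 1171. In the sorted set TGFBRi rat 14 alone reached 2186, and the next value was 422. CXCL6 behaved alike, at 3.65 to 11.6 and 9.87 to 196 (2.53, edgeR adjusted p = 0.086). ALDH1A3 was at 25.999 to 57.96 and 13.4 to 55.96 in sorted cells (-0.25, edgeR adjusted p = 0.67), and GATA3 at 266 to 296 and 212 to 433 (0.11, edgeR adjusted p = 0.73). ESR1 was at 32.9 to 47.4 and 8.18 to 42.1 there (-1.02, edgeR adjusted p = 0.13), against the rise in the whole gland. CSN1S1 rose in sorted cells, from 299 to 360 up to 1011 to 8546 (3.41, edgeR adjusted p = 0.016), as did 10 of 12 milk protein genes, beside 15.5% of all genes there. In these cells 22 of 41 S phase genes rose and 2 fell. Of 50 G2/M genes 33 rose and 0 fell, and of 20 respiratory chain genes 16 rose and 0 fell. Of 17 junction genes 4 fell and 2 rose, and of 18 TGFβ pathway genes 2 fell and 4 rose. Called were 0 of 4 luminal keratins and 0 of 11 progenitor and alveolar genes, beside 30.4% of all genes. HEPACAM2 rose in both sets, from 34.5, 44.2 and 39.7 to 51.4 to 120 in sorted cells (1.13, SE 0.32, edgeR adjusted p = 0.031). Sorting and chemistry differ at once between the sets, and the paper describes a further filter for the sorted cells only. That filter removed cells with any PTPRC read or with few keratin reads. These differences cannot be told apart. Rat numbers 1 and 2 of the vehicle and 11 and 14 of the TGFBRi group occur in both sets. Whether they name the same animals is not given in the sources used here, and the test of the difference took all libraries as separate rats. Levels are not compared across them beyond setting the values side by side.

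**Figure D5:**
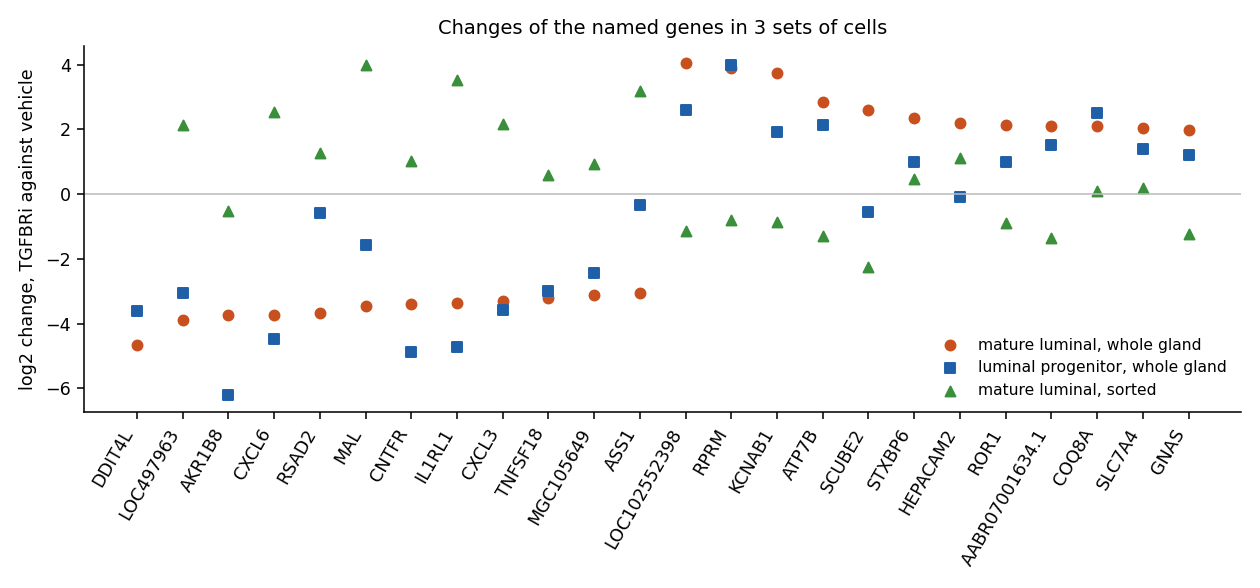
Log2 change, TGFBRi against vehicle (vertical axis), of the 24 genes with the largest changes in whole gland mature luminal cells (circles), beside the change in luminal progenitors of the same rats (squares) and in mature luminal cells of the sorted luminal fraction (triangles), where fitted. Circles and squares of the falls lie below 0, while the triangles of 10 of the 11 falls tested lie above it.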

How the data were processed

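Single-cell tables of whole SD glands and of sorted SD luminal cells were used (9 libraries each, 1 per rat). Deposited values were UMI counts for each cell, for which the authors used Cell Ranger 7.0.0 and Seurat 4.1.1 (sorted cells: Cell Ranger 4.0.0 and Seurat 4.0.0) on rat build rn6. The authors removed low-quality cells before deposit. Counts of the cells in the gate were summed per rat. Genes with at least 10 UMIs were tested with edgeR 4.0.16 (quasi-likelihood, TMM scaling). Calls needed an adjusted p up to 0.1, or up to 0.05 between classes. SEs came from DESeq2 1.42.0, and shares were compared by two-sided exact permutation over rats. P-values measure the spread between rats. CPM values of genes tested for treatment are UMI counts scaled to the TMM-scaled sum of each rat. Those in the comparison of classes were TMM-scaled over both classes together. Gate strata, gate genes, list sums and B cell levels were scaled to the plain UMI sum. The same gene can therefore differ slightly in CPM between passages. For thinning, cells under 2000 UMIs were left out (72 vehicle and 128 TGFBRi mature luminal cells). Scrublet scores marked the top 6% of each library for the alternative without likely doublets, which otherwise stayed in. B cells were cells with at least 3 UMIs over CD79B and MS4A1 and at most 1 over KRT8, KRT18, KRT5 and KRT14.

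The gate, the gene lists and the tests were chosen with earlier results of these data known. Genes named are the 12 largest called changes per direction with a mean of at least 20 UMIs per rat and groups that do not overlap, 2 to 4 members of smallest p per list, and cell type markers, and other genes were named after their values were seen. Some listed genes are counted but not reported here by name. For mature luminal cells against progenitors they are the 10 largest changes per direction. Sequences came from RefSeq (GRCr8), where 87 of the named genes matched by symbol. Replicate numbers 1, 2 and 4 occur in both groups but do not mark shared animals. The scripts were tested on simulated counts. R 4.3.3, Python 3.11.15 and scanpy 1.11.5 were used.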

Additional observations from a re-analysis of the deposited data

Results flagged for a closer look

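In 11 of 114 groups of 6 TGFBRi rats (9.65%), 1 rat lay far from the others by Dixon's ratio, which chance gives in about 1 in 20 groups. TGFBRi rat 4 was the highest for DDIT4L (1.17 CPM, others up to 0.44), AREG (1915, others 819 to 1155), KRT7 (497, others 165 to 271), KRT80 (10.4, others 2.40 to 4.64), CDKN1A (431, others 303 to 343) and LYZ2 (4.54, others 0.87 to 2.02), and the lowest for ATP7B (12.3, others 18.2 to 20.6). TGFBRi rat 6 was the highest for WNT4 (137, others 63.4 to 89.2). TGFBRi rat 11 was the highest for PRIM1 (34.8, others 16.2 to 22.1), NDUFB3 (141, others 111 to 122) and HBA-A1 (4.36, others 0.21 to 1.04).

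For 25 of the 94 named genes that were called in mature luminal cells, beside 8.05% of all genes, the TGFBRi effect differed between mature luminal cells and luminal progenitors (edgeR interaction, adjusted p of 0.1 or less). The 94 genes were chosen for their change in mature luminal cells, one side of this difference, so a higher count follows in part from the choice. Among all 3779 genes called in mature luminal cells, 454 had a called interaction. On the log2 scale, the effect in mature luminal cells minus that in progenitors was -2.90 for RSAD2, -2.77 for ASS1, -2.31 for ID2, -2.29 for DPP4, -1.81 for KRT23, -1.81 for CSF3, -1.63 for CXCL2, -1.50 for CSN1S1, -1.47 for PRR27, -1.40 for TGFB3, -1.25 for CXCL1, -1.23 for PLIN2, -1.20 for GATA3, -1.04 for FASN, -1.01 for NOTCH1, -0.89 for TSC22D1, -0.76 for KRT19, -0.69 for IER3 and -0.54 for TGIF1. It was 1.25 for TRIB3, 1.41 for STXBP6, 1.56 for KRT7, 1.72 for FGF1, 2.65 for AKR1B8 and 3.21 for SCUBE2. AREG (2.64), FOXA1 (1.83) and LALBA (-1.30) also passed and were not called in mature luminal cells.

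For 23 of the 24 largest changes the effect differed between whole gland and sorted mature luminal cells (edgeR interaction of data set and treatment, added after both comparisons had been seen), beside 29.7% of all genes. The 24 genes were chosen for their change in the whole gland, which is one side of this difference, so a high count follows in part from the choice. The effect in the whole gland minus that in sorted cells was -7.47 for MAL, -6.99 for DDIT4L, -6.74 for IL1RL1, -6.34 for ASS1, -6.26 for CXCL6, -5.89 for LOC497963, -5.48 for CXCL3, -4.92 for RSAD2, -4.60 for CNTFR, -4.06 for MGC105649, -3.79 for TNFSF18 and -3.21 for AKR1B8. It was 5.18 for LOC102552398, 4.86 for SCUBE2, 4.70 for RPRM, 4.63 for KCNAB1, 4.15 for ATP7B, 3.43 for AABR07001634.1, 3.23 for GNAS, 3.01 for ROR1, 1.98 for COQ8A, 1.86 for STXBP6 and 1.84 for SLC7A4. HEPACAM2 was the exception. DDIT4L had too few UMIs to be tested in the sorted cells alone and was at 0 in 3 TGFBRi rats of the whole gland, so that its value rests on few UMIs.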

How the results depend on the processing

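Limits. With 3 vehicle rats, single rats decide several calls. The number of genes changed in mature luminal cells was 2680 to 3864 over fits without 1 rat, 3684 with DESeq2, 3485 without the filter, 3753 with a stricter gate, 3629 without likely doublets and, added after the data were seen, 3714 for cells with UMIs of ESR1, PGR, FOXA1 or AREG. It was 984 at 2000 UMIs per cell (36.5% of them raised, against 46.6%) and 969 when genes with B cell RNA were left out (2644 tested). With rats 1, 2 and 4 alone it was 1117 with the replicate number as a block and 2100 without the block. Deviations of same-numbered rats correlated at 0.129, -0.385 and 0.066, and those of rats with different numbers at -0.136 to 0.283. These values cannot tell whether same-numbered rats share more than a number. Genes differing between the classes numbered 6445 to 6853 without 1 rat and 5995 with no block, and class-dependent effects 372 to 1309 (1322 with DESeq2). In sorted cells the count was 1088 to 4857. The difference in share of all cells was 0.0901 points with the stricter gate, 1.10 thinned and -0.90 to 0.0847 without 1 rat. Among luminal cells it was 6.48 thinned and -5.85 to 3.70 without 1 rat. For cells with G2/M UMIs it was 0.14 without likely doublets and -2.07 to 0.84 without 1 rat. Of 111 named genes, 94 were called; over 2031 alternative values 1807 kept direction and side of the threshold, 170 lost the call, 24 gained it and 30 turned in sign, 6 of them for called genes. Thinning turned FOXA1 to -0.37, KRT14 to 0.27, CXCL12 to -0.10, RASD1 to -0.72, PRR27 to 0.38, CSN1S1 to 0.17, LALBA to 0.51, MFAP5 to 0.11 and LYZ2 to 0.036. Without cells holding UMIs of other types KRT5 was -1.25, ACTA2 -0.25, RASD1 -0.0395, MFAP5 0.80 and HBA-A1 1.81. Without likely doublets DPP4 was 0.032 and HBA-A1 1.24. In the cells with hormone UMIs KRT5 was -0.44 and ACTA2 -0.40. In rats 1, 2 and 4 FOXA1 was -0.16 with the block and -0.18 without it, and KRT5 -0.10 and -0.068. Without 1 rat FOXA1 was -0.040 to 0.32, KRT5 -0.20 to 0.92, KRT14 -0.55 to 0.37 and UPK3A -1.70 to 0.72. The cause of these changes was not tested.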
